A study of Saccharomyces cerevisiae with 12 samples.

Results

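The late hours of a yeast sporulation course were set against its early hours. The late samples were taken at 5.0, 5.5 and 6.0 h and the early samples at 0.5, 1.0, 1.5 and 2.0 h, so that 7 of the 12 samples and 14 of the 24 arrays of the series were used, each assigned to its window by its time label. The samples at 0.0 h (1) and from 2.5 to 4.5 h (4) stayed out of the test. By their labels, late and early samples differ only in time, though the signal of their arrays differed too, as given below. All are Saccharomyces cerevisiae of strain SK1, a background used for its fast and synchronous sporulation, with no mutation or drug named in the labels. Each sample is RNA pooled from the cells of 6 cultures grown on 1 day, hybridised on 2 spotted arrays, called A and B, against RNA of time zero. Later RNA was labelled with Cy5 on A arrays and with Cy3 on B arrays, and an array holds 12614 gene spots for 6293 genes. All values below are log2 ratios of later RNA over time-zero RNA, averaged over both arrays, and a difference is the late mean minus the early mean. A time is 1 pool, so the errors and p-values rest on how far the times of a window differ, true change among them included, and not on separate cultures. In pooled RNA, a smaller share of cells expressing a gene and less RNA per cell cannot be told apart.

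When starved of nitrogen and of fermentable sugar, diploid yeast leaves the mitotic cycle. The early genes, switched on through the regulator Ime1 and the kinase Ime2, serve DNA replication, recombination and pairing of chromosomes. The transcription factor Ndt80 then switches on the middle genes, which drive both meiotic divisions and enclose the nuclei in membranes. Spore walls are laid down around them last, from mannan and glucan inside to chitosan and dityrosine outside.

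The A and B arrays of 2 late samples disagreed, and every result below rests on these arrays. The A and B ratios correlated across genes with r = 0.510 at 5.5 h, but with r = -0.0097 at 5.0 h and r = -0.022 at 6.0 h, against 0.186 to 0.577 at the early times. The 5.0 h B array, both 5.5 h arrays and the 6.0 h A array correlated with each other at 0.460 to 0.718. The 5.0 h A array and the 6.0 h B array correlated with those at no more than 0.327 and 0.100. On these 2 arrays the median blank spot had 48.2% and 62.9% of the median gene spot's intensity in the channel of the later RNA, compared with 4.17% to 27.5% on the other late arrays. Early arrays had 65.8% to 81.9% on the A side and 3.69% to 33.3% on the B side in that channel. In the time-zero channel the early B arrays had 58.3% to 88.5%, the early A arrays 1.96% to 9.13% and the late arrays 7.39% to 27.0%. Both high ranges of the early arrays belong to Cy5, which had 4.17% to 48.2% on the late arrays. Cy5 signal near the blanks thus went with the early window, and its part in the differences was not tested. The part of blank intensity in the disagreement was not tested. Subtracting the blank median, with smaller values set to a floor taken from the blank spots, left the called rises described below near 0 on both arrays. Their medians were -0.0039 on the 5.0 h A array and -0.0068 on the 6.0 h B array, and -0.083 to 0.030 on the early arrays. The floor itself draws ratios of dim spots toward 0, so these medians cannot show what part the blanks had. Counts are therefore given over all arrays and, where stated, without these 2.

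Of 6285 genes tested with limma, 262 (4.17%) passed at a Benjamini-Hochberg adjusted p under 0.05. There were 224 rises (3.56%), by a median of 2.37 and at most 5.71, and 38 falls (0.605%), by a median of -1.92 and at most -3.66, while the median of all genes was 0.0022. In 733 genes (11.7%) every late sample lay above every early one, and in 387 (6.16%) below; all 262 called genes were among these. The difference had the same sign from the A arrays alone and from the B arrays alone for 221 of the 224 rises and 38 of the 38 falls, and for 54.1% of all genes. The calls were made on the mean of these same A and B values, which favours such agreement, so it is no separate check. Without the 5.0 h A and 6.0 h B arrays limma called 625 of 6236 genes (493 higher, 132 lower), which included 208 of the rises and 32 of the falls. With these 2 arrays kept and the 5.0 h B and 6.0 h A arrays left out in their place, it called 0, with 589 genes at an unadjusted p under 0.05.

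**Figure D1:**
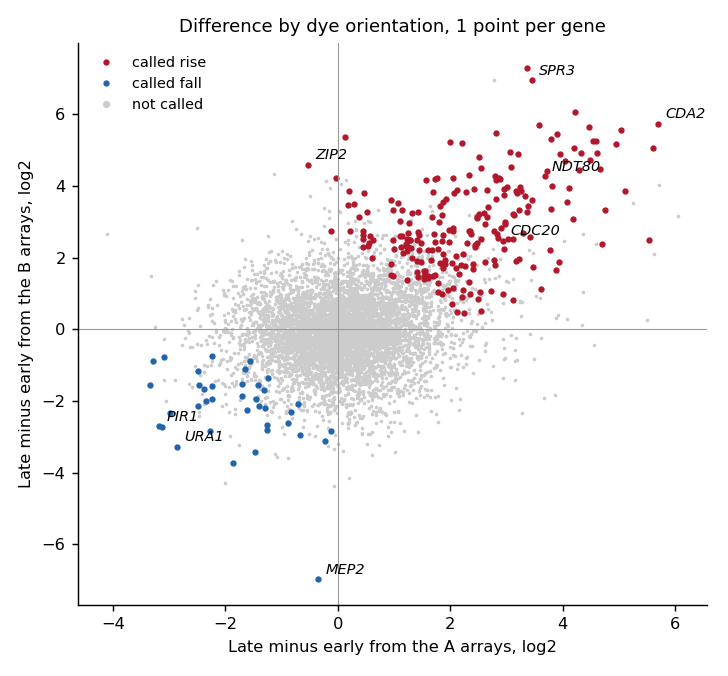
Late minus early difference (log2) from the A arrays alone, across, and from the B arrays alone, up, for each gene; called rises are red, called falls blue, other genes grey. The falls lie below 0 on both axes and 221 of 224 rises above 0 on both; ZIP2 is at -0.52 and 4.59, and MEP2 at -0.35 and -6.97.

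By their sample medians, the called rises lay near time zero in the early samples and well above it in the late ones. The median ratio of the 224 rises was 2.04, 2.91 and 1.87 at 5.0, 5.5 and 6.0 h, against -0.0092, -0.072, 0.020 and 0.023 at 0.5, 1.0, 1.5 and 2.0 h. The same genes had medians of 0.045, 0.59, 0.16 and 0.024 at 2.5, 3.5, 4.0 and 4.5 h, times that had no part in choosing them. For 170 of the 224, the mean of the 2.5 to 4.5 h samples had covered under 25% of the change, and for 11 over 50%. By array, the late medians of the rises were 4.12, 2.30, 3.61 and 3.62 on the 5.0 h B, 5.5 h A, 5.5 h B and 6.0 h A arrays, but -0.0012 and 0.27 on the 5.0 h A and 6.0 h B arrays, so that at 5.0 h and 6.0 h a sample's value is the mean of a high array and a flat one. At 3.5 h the B array was at 1.07 and the A array at 0.16. Blank spots there had 15.6% and 81.5% of the median gene spot's intensity in the channel of the later RNA. They had 64.6% and 60.5% on the 4.0 h and 4.5 h A arrays, so the middle values rest partly on arrays near the blanks. The 38 falls had medians of -1.03, -1.34 and -0.79 at the 3 late times, against 0.76, 1.02, 0.58 and 0.77 at the 4 early ones, and 16 of them averaged over 1 in the early samples. The falls thus include genes that stood above time zero in the first 2.0 h, whereas 204 rises averaged within 1 of time zero there.

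**Figure D2:**
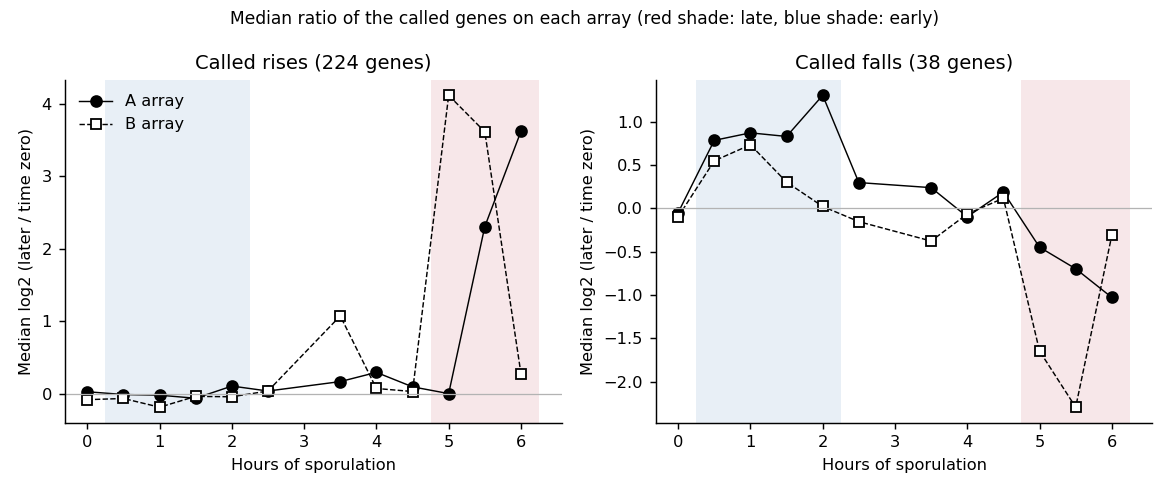
Median log2 ratio of the 224 called rises (left) and the 38 called falls (right) on each array, by hour; filled circles are A arrays and open squares B arrays, with the early samples shaded blue and the late ones red. The rises sit near 0 through 2.5 h and on the 5.0 h A and 6.0 h B arrays, and between 2.30 and 4.12 on the other 4 late arrays.

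Many rises started from levels that the arrays could not measure. Of the 224, 78 were not above background (the 95th percentile of the blank spots) on any of the 8 early arrays, and 148 were above it on at least 4 of the 6 late ones. For 77 of those 78 the fold can be given only as an estimated lower bound, from 1.19 to 13.3 with a median of 3.50. It sets the late channel of the later RNA, after loess and quantile scaling of average intensity, against the same channel of the early arrays. On each early array the gene's own value was used, or the lowest value of any gene above background where that was higher. The unmeasured early level can lie above this, so every fold given below as at least a value is an estimate and no firm minimum. For the other 1 the bound fell under 1, so no fold is given. Ratio differences of these 78 genes, which enter the medians and ranges of all rises and of lists, are fitted values against an unmeasured early level. In the channel of the later RNA alone, the 224 rises differed by a median of 1.91, and for 34 of them by under 50% of the change in ratio, 8 of these in the opposite direction. The 38 falls differed there by a median of -1.52, 11 of them by under 50% of the change in ratio and 2 of these in the opposite direction.

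**Figure D3:**
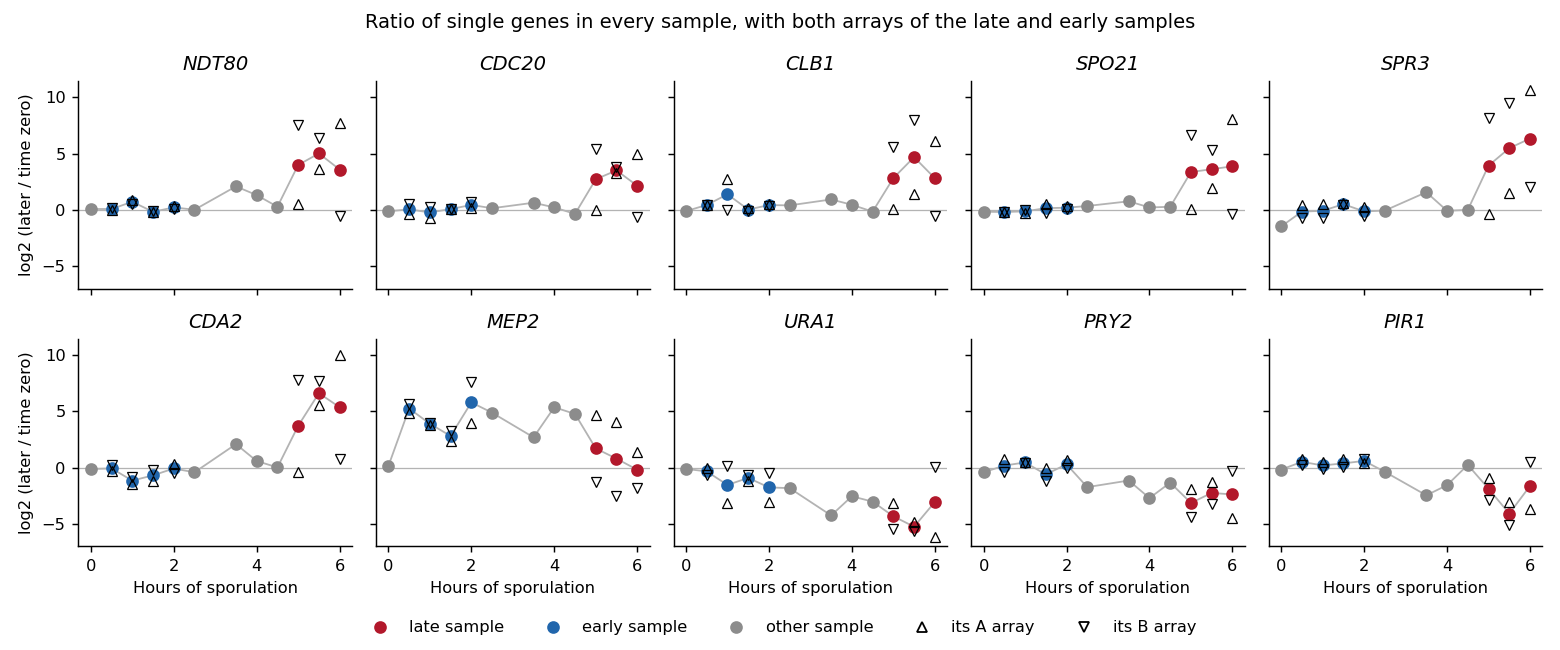
Log2 ratio of later RNA over time zero for 10 genes in all 12 samples, by hour; red points are late samples, blue ones early, grey ones other times, and triangles are the A (up) and B (down) arrays of the late and early samples. NDT80, CDC20, CLB1, SPO21, SPR3 and CDA2 are higher in each late sample than in any early one and MEP2, URA1, PRY2 and PIR1 lower, and the triangles of a late time often lie far apart.

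Among regulators, NDT80 rose. Its ratio was 3.99, 5.01 and 3.59 at 5.0, 5.5 and 6.0 h, against 0.08, 0.73, -0.17 and 0.23 at 0.5, 1.0, 1.5 and 2.0 h. The groups did not overlap. It was above background on 3 of 6 late and 0 of 8 early arrays, so the rise was at least 3.93-fold (adjusted p = 0.0013). IME1, which starts the programme, was at -0.01, -0.23 and 0.16 late, against -0.70, -0.47, 0.79 and -1.52 early, with overlapping groups and a difference of 0.45 ± 0.49 (SE, n = 3 and 4, adjusted p = 0.65). IME2, its early target and a kinase, was at -0.06, 3.35 and 1.59 late, against 2.94, 1.30, 2.04 and 5.21 early (difference -1.25 ± 0.96, adjusted p = 0.50); its 5.0 h value comes from the A array alone. Of the 20 regulators of entry and exit, 1 rose, 0 fell and 19 did not pass, a share near the 3.56% of all genes, and the list's median difference was 0.19. Over all genes 3.56% rose and 0.605% fell, and these shares stand beside every list count below.

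Genes that make and repair the programmed breaks in meiotic DNA were called in part. SPO11, the enzyme that cuts the DNA, was at 2.59, 2.17 and 2.38 late, against 0.32, 0.31, 1.00 and 0.34 early (difference 1.89 ± 0.32, adjusted p = 0.010). MEI4, needed for these cuts, rose by 2.13 ± 0.36 (adjusted p = 0.011). Both differences came mostly from the B arrays: SPO11 differed by 3.49 from the B arrays and 0.28 from the A arrays, and MEI4 by 3.81 and 0.46. Of the 12 genes of break formation, 2 rose and 0 fell, with a median of 0.47. Of 13 genes of strand exchange, none passed (0 rose, 0 fell; median -0.06). Its 2 members with the smallest p were MND1 and HOP2, a partner pair that helps the recombinases, at 1.36 ± 0.35 and 1.13 ± 0.33 (adjusted p = 0.062 and 0.094). DMC1, the meiotic recombinase, was high in both windows, at 1.35, 3.98 and 2.36 late, against 1.94, 1.79, 4.17 and 3.38 early. HOP1, a protein of the chromosome axis, was at 3.43, 2.84 and 2.19 late, against 1.43, 0.29, 2.49 and 3.65 early. Neither separated the windows (adjusted p = 0.87 and 0.53).

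Of 20 genes of the chromosome axis and of synapsis, the pairing of homologues along their length, 4 rose and 0 fell, with a median of 0.68. GMC2, of the central element of the synaptonemal complex, was at 3.44, 1.98 and 3.34 late, against -0.46, 0.33, 0.29 and 0.35 early (difference 2.79 ± 0.42, adjusted p = 0.0066). SPO16, MSH4 and ZIP2, which promote crossovers, rose by 2.27 ± 0.45, 1.55 ± 0.32 and 2.03 ± 0.33. ZIP2 was at -0.52 from the A arrays and 4.59 from the B arrays, so its direction depends on the dye orientation, and without the 5.0 h A and 6.0 h B arrays its adjusted p was 0.0502. Each of these 4 was above background on 3 of 6 late and on 1 or 2 of 8 early arrays.

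Among genes of chromosome segregation, MAM1, the monopolin subunit that makes sister chromatids travel together in the first division, rose. It was at 3.38, 4.14 and 3.21 late, against -0.22, -0.34, -0.16 and -0.17 early. The rise was at least 3.29-fold (adjusted p = 0.00056, the smallest of all genes tested, shared with SPO21, RRT5 and YGL230C). PDS1, the securin that holds back anaphase, rose by 3.16 ± 0.65, and SGO1, the shugoshin, guardian of cohesion at centromeres, by 2.37 ± 0.37 (adjusted p = 0.027 and 0.0072). These are the 3 called members among 20 genes of cohesion and homologue segregation, whose median was 0.35.

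Of 20 genes that activate anaphase, 9 rose and 0 fell, with a median of 1.77. CDC20, the activator that starts anaphase through the anaphase-promoting complex, was at 2.72, 3.51 and 2.15 late, against 0.06, -0.22, 0.08 and 0.45 early, a rise of at least 5.56-fold (adjusted p = 0.0040). CDC5, the polo kinase that releases cells from the pachytene stage, was at 3.37, 4.15 and 2.09 late, against 0.59, 0.44, 0.39 and -0.95 early, and it was above background on 6 of 6 late and 5 of 8 early arrays (difference 3.09 ± 0.54, adjusted p = 0.012). CDH1, another activator of the complex, rose by 2.51 ± 0.45. APC1, its largest subunit, rose by 2.02 ± 0.33, of which the A arrays alone show 0.20. CDC16, a subunit above background on no early array, was at least 4.72-fold higher. The other called members were APC11 (1.99), CDC27 (1.94), CDC14, the phosphatase of mitotic exit (1.83), and APC4 (1.71). AMA1, the activator specific to meiosis, was at 1.97 and did not pass. Without the 5.0 h A and 6.0 h B arrays, 12 of the 20 rose.

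Of 12 genes for cyclins, their kinase and its inhibitor, 3 rose and 0 fell. CLB4, a cyclin of the divisions, was at 3.03, 5.34 and 2.77 late, against 0.17, -0.16, 0.35 and 0.39 early, and CLB1, another one, at 2.82, 4.69 and 2.81 late, against 0.45, 1.39, 0.04 and 0.43 early. CLB6, a cyclin of S phase in mitotic cells, was at 2.85, 3.50 and 3.39 late, against -0.33, 0.34, 0.27 and 0.20 early, at least 1.94-fold higher. Adjusted p was 0.0087, 0.014 and 0.0013 in turn. CLB2, the main cyclin of mitosis, was at -0.12 and was not called. The kinase inhibitor SIC1 and the G1 cyclin CLN3 were at -1.40 and -1.38 and did not pass.

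The spindle pole body is the yeast centrosome, and in the second division its outer plaque becomes the platform on which the spore membrane grows. Of 18 genes of these structures, 5 rose and 0 fell, with a median of 0.84. SPO21, of the meiotic outer plaque, was at 3.36, 3.61 and 3.87 late, against -0.18, -0.12, 0.16 and 0.20 early (at least 3.50-fold, adjusted p = 0.00056). CNM67, which ties the plaque to the central body, rose by 3.66 ± 0.43, and SPO74, another plaque component, by at least 6.23-fold. ADY3, which links the pole to the membrane's leading edge, was at 3.03, 2.95 and 2.39 late, against 0.25, 0.30, 0.18 and 0.33 early (at least 3.36-fold, adjusted p = 0.0017). The remaining called member was BBP1 (2.54). MPC54, a partner of SPO21 in the meiotic plaque, was at 0.45 and did not pass. The members not called ran from -0.49 to 2.14, with SPC98 and TUB4 of the microtubule-nucleating complex at 0.22 and 0.42.

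Genes of spore membrane assembly showed the second highest median of the 33 lists, 2.82, with 11 of 22 members risen and 0 fallen; it was 2.45 with the 5 members whose early level was only bounded put at their bounds. SPR3, a septin made in sporulation, was at 3.93, 5.48 and 6.33 late, against -0.15, -0.07, 0.52 and -0.13 early, a rise of at least 8.46-fold (adjusted p = 0.0013). On its arrays the 3 late times read -0.33 and 8.19, 1.49 and 9.47, and 10.59 and 2.07 (A, then B). SSP1, of the coat at the membrane's leading edge, was at 2.98, 4.70 and 3.53 late, against 0.07, 0.40, 0.34 and 0.12 early, at least 2.93-fold higher. SPO77 was at least 4.21-fold higher and SMA2 at least 5.27-fold. The other called members were SSP2 (4.42), SPO20, the membrane-fusion protein that replaces its vegetative relative (4.37), SMA1 (4.15), the mitogen-activated kinase SMK1 (3.90), GIP1, a phosphatase subunit (3.53), and the septin CDC3 (2.77). Of the 11 members not called, 10 lay above 0, up to 3.39 for SPO19. Without the 5.0 h A and 6.0 h B arrays 11 members rose and the median was 4.60.

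Genes of the spore wall had the highest median, 3.54, with 15 of 24 members risen and 0 fallen; with 10 bounded members at their bounds it was 2.84. CDA2, a chitin deacetylase that makes chitosan, was at 3.72, 6.61 and 5.36 late, against -0.06, -1.14, -0.67 and -0.06 early. It was above background on 4 of 6 late and 0 of 8 early arrays, and the rise was at least 7.44-fold (adjusted p = 0.0013). SPR1, a glucanase specific to sporulation, was at 3.38, 7.63 and 4.28 late, against -0.21, -0.08, -0.33 and -0.34 early, at least 12.6-fold higher. GAS2 and GAS4, which remodel glucan, were at 3.68, 7.33 and 4.90, and at 3.40, 4.60 and 5.57 late; early they reached at most 0.48 and 0.45. The rises were at least 9.18-fold and at least 13.3-fold. OSW1, of the outer wall, rose at least 7.86-fold, SPS2 at least 5.99-fold and LDS2 at least 5.75-fold. OSW2 rose at least 4.15-fold and DIT2, of dityrosine synthesis, at least 2.69-fold. The other called members were CDA1 (4.07), LOH1 (3.77), DTR1, the dityrosine transporter (3.54), MUM3 (3.54), CRR1 (3.42) and SPO77, given above. Without the 5.0 h A and 6.0 h B arrays the count was again 15 and the median 5.74.

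Among wall genes that did not pass, 2 markers were high at 5.5 and 6.0 h. SPS4, a late marker, was at -0.20, 7.14 and 6.52 late, against 0.15, 0.29, 0.54 and 0.29 early (adjusted p = 0.14); its 5.0 h value comes from the A array alone. DIT1, the first enzyme of dityrosine synthesis, was at 0.28, 2.48 and 3.57 late, against 0.36, -0.13, 0.29 and -0.15 early (adjusted p = 0.12). Its 5.0 h B array, on which other rises were high, read 0.58, compared with 6.29 on the 6.0 h A array. CHS3, the chitin synthase that also serves the vegetative wall, was at -0.06.

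**Figure D4:**
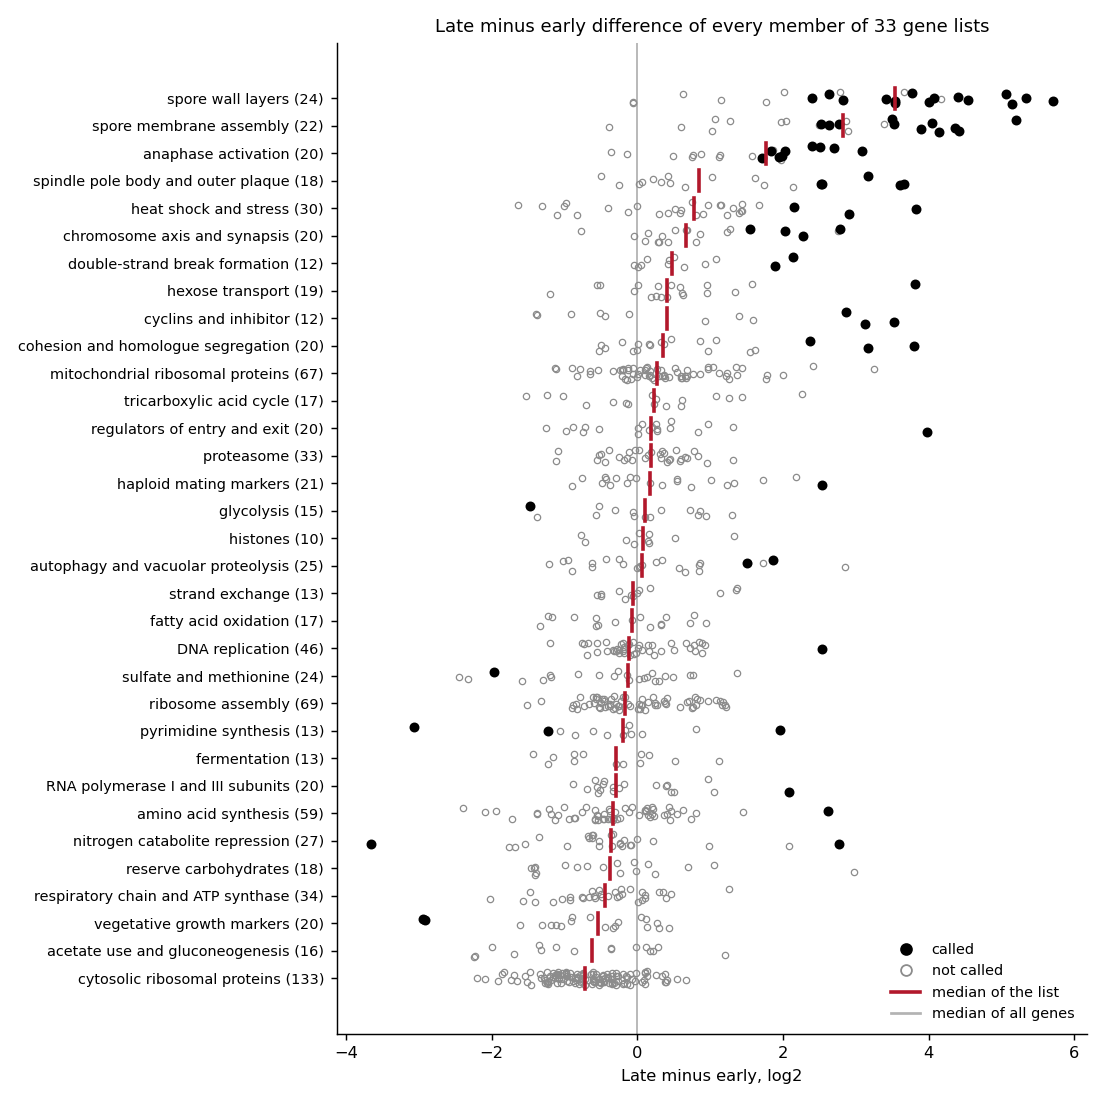
Late minus early difference (log2) of every tested member of the 33 gene lists, the number of members in brackets; black points were called, open ones were not, red bars are list medians and the grey line is the median of all genes. Spore wall (median 3.54), spore membrane (2.82) and anaphase genes (1.77) lie furthest to the right, and cytosolic ribosomal proteins (-0.72) furthest to the left.

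Only 63 of the 224 rises belong to a list, and the 15 largest rises with both orientations agreed include many genes of little known function. SPR2, named for its link to sporulation, was at 3.73, 7.01 and 6.00 late, against -0.22, 0.29, 0.73 and 0.29 early (difference 5.31 ± 0.66, adjusted p = 0.0022). GAT4, a zinc finger protein of the GATA family, was at 3.39, 6.00 and 4.58 late, against -0.09, -0.42, -0.09 and 0.14 early, at least 6.38-fold higher. RRT5 rose at least 12.9-fold and BIL2 at least 4.32-fold. Of the genes with no symbol in the gene table, YGR273C was at least 5.85-fold higher, YNL205C at least 7.66-fold and YNL019C at least 11.1-fold. The differences of YDR042C, YNL033W and YDL114W were 5.05 ± 0.54, 4.90 ± 0.57 and 4.64 ± 0.80. At 5.5 h the values of RRT5 and YNL033W come from the A array alone. YNL033W and YNL019C lie beside YNL034W (3.23) and YNL018C (at least 4.38-fold), called as well and looked up after the values were seen. The 2 neighbouring pairs are known as a duplication, so spots of either pair may read RNA of both. SPS18, the neighbour of YNL205C by locus number, was also called (2.98).

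Some rises lay outside the meiotic lists, in lists with 1 to 3 called members. Of all genes 3.56% rose, so the rises below are given gene by gene and not as results about their lists. HXT10, of the hexose transporter family, was at 1.99, 5.24 and 4.21 late, against -0.39, 0.22, -0.07 and 0.23 early (at least 8.42-fold, adjusted p = 0.010), the 1 called member of 19 hexose transport genes. SSA3, a heat-shock chaperone of the Hsp70 family, was at 1.89, 3.49 and 0.84 late, against -2.40, -2.43, -0.75 and -1.46 early (difference 3.83 ± 0.63, adjusted p = 0.0093). Its early samples lay below time zero, so the contrast joins a low start and a high end. SSA4, its relative, was at -1.31, 0.53 and -0.51 late, against -2.49, -3.19, -2.15 and -2.50 early, and GRE1, a hydrophilin, rose by 2.90 ± 0.54. In the channel of the later RNA alone SSA4 differed by 0.91 and GRE1 by 0.77, and without the 5.0 h A and 6.0 h B arrays GRE1 was at 2.04 ± 0.71 (adjusted p = 0.099). These are the 3 called members of 30 stress genes (median 0.78). GLN1, glutamine synthetase, was at 1.10, 1.94 and 0.40 late, against -1.96, -2.83, -1.45 and -0.28 early (adjusted p = 0.030), and SER33, of serine synthesis, rose by 2.61 ± 0.53. ATG4 and ATG5, of autophagosome formation, rose by 1.87 ± 0.39 and 1.51 ± 0.35, 2 of 25 genes of autophagy and vacuolar proteolysis; without the 5.0 h A and 6.0 h B arrays ATG5 was at 1.18 ± 0.48 (adjusted p = 0.15). ORC1, of the origin recognition complex, was the 1 called gene of 46 in DNA replication (2.54 ± 0.36); in the channel of the later RNA alone it differed by -0.15. RPC40, shared by RNA polymerases I and III, rose by 2.08 ± 0.34, 1 of 20 subunit genes.

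Falls were fewer. MEP2, an ammonium transporter that is also a starvation sensor, was at 1.71, 0.81 and -0.18 late, against 5.25, 3.90, 2.82 and 5.79 early (difference -3.66 ± 0.70, adjusted p = 0.019). It differed by -6.97 from the B arrays and by -0.35 from the A arrays. URA1, dihydroorotate dehydrogenase, was at -4.30, -5.23 and -3.04 late, against -0.32, -1.53, -0.90 and -1.74 early (adjusted p = 0.012). URA3, the last step to uridylate, fell by 1.22 ± 0.29 in the ratio, but in the channel of the later RNA alone it differed by 0.19. FUR1, which salvages uracil, rose by 1.96 ± 0.45. These are the 3 called of 13 pyrimidine genes, where 4.17% of all genes were called. HXK2, the main hexokinase of growth on glucose, was called lower by its ratio, 1 of 15 glycolytic genes. It was above background on 3 of 6 late and 0 of 8 early arrays, and in the channel of the later RNA alone it differed by -0.20, so no size is given. MET28, a regulator of sulfur genes, was at 0.05, 0.21 and 1.29 late, against 2.33, 2.50, 2.47 and 2.63 early (adjusted p = 0.015), the 1 called of 24 sulfate and methionine genes; without the 5.0 h A and 6.0 h B arrays it was at -1.45 ± 0.74 (adjusted p = 0.235).

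Other large falls were PRY2, a secreted sterol-binding protein, at -3.12, -2.23 and -2.37 late, against 0.19, 0.47, -0.59 and 0.31 early (adjusted p = 0.0042), and NCE103, carbonic anhydrase, at -1.30, -2.18 and -1.73 late, against 0.71, 1.19, 0.31 and 1.12 early (adjusted p = 0.0039). Both were above background on at least 5 late and 7 early arrays, and each orientation gave -1.86 or lower. The 5.0 h value of NCE103 comes from the A array alone, so the gene could not be tested without the 5.0 h A and 6.0 h B arrays. SUN4, of cell separation, fell by 2.45 ± 0.42, and SUR7, of the plasma membrane's eisosomes, fell by 2.10 ± 0.41. AHP1, a thiol peroxidase, fell by 2.45 ± 0.52, and CIN5, a stress-related transcription factor, fell by 2.55 ± 0.57; each was below 0 at 0.5 h and over 1 at the 3 other early times. FPR2, a peptidyl-prolyl isomerase, fell by 2.17 ± 0.49. In the channel of the later RNA alone AHP1 differed by -0.78, and FPR2 too by under 50% of its change in ratio. SIR3, of silent chromatin, was above background on 0 of 6 late and 6 of 8 early arrays. Its ratio differed by -2.09 ± 0.42, with -3.29 from the A arrays and -0.89 from the B arrays. The ratio difference was 4.26-fold, under the 8.20-fold that the channel of the later RNA gave as a lower bound, so the size is uncertain. LAA1 was called lower by its ratio, but it was above background on 1 of 6 late and 0 of 8 early arrays and differed by -0.30 in the channel of the later RNA, so no size is given. YCRX17W and YPL025C, for which the gene table gave no symbol, were at -2.32 ± 0.55 and -2.02 ± 0.40; YPL025C differed by -0.84 in the channel of the later RNA.

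Of the 7 markers of sporulating cells, NDT80 and SPR3 rose, and IME2, SPS4, DIT1, DMC1 and HOP1 did not pass. Markers of other cells were looked at beside these. Of 20 markers of vegetative growth, 2 fell and 0 rose, where 0.605% of all genes fell and 3.56% rose. The list's median ratio ran from -0.41 to -0.22 late, against 0.09 to 0.45 early. Its median difference was -0.98 from the A arrays and -0.18 from the B arrays. DSE2, a daughter-cell glucanase, was at -1.06, -2.40 and -1.23 late, against 0.99, 2.28, 1.99 and 0.18 early, and PIR1, a wall glycoprotein, at -1.86, -4.07 and -1.61 late, against 0.53, 0.21, 0.39 and 0.61 early (adjusted p = 0.017 and 0.015). Of 21 markers of haploid cells, which do not enter meiosis, 1 rose, a share near that of all genes: STE4, a G protein subunit of mating, at 1.69, 3.70 and 1.60 late, against -0.37, -0.37, 0.50 and -0.57 early (adjusted p = 0.029). The list's median ratio ran from -0.12 to 0.19 late, against -0.09 to 0.04 early, and 9 of its 21 genes were above background on no early array. The part of changes in cell makeup in the results was not tested.

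In 12 of the 33 lists no member was called. Cytosolic ribosomal proteins had a median of -0.72 over 133 genes (15 above 0), but 0.21 from the A arrays and -1.69 from the B arrays. RPL31A and RPS25B, the members with the smallest p, were at -1.28 ± 0.34 and -1.23 ± 0.34 (adjusted p = 0.070 and 0.083). Mitochondrial ribosomal proteins (67 genes) were at 0.28, with MRPL7 and RSM24, the members with the smallest p, at 1.24 ± 0.32 and 2.00 ± 0.51. Ribosome assembly (69 genes) was at -0.17, a sign that 7 alternatives turned, with 32 genes above background on no early array; its NOP58 and LTV1 were at 1.22 ± 0.34 and 1.18 ± 0.38. Acetate use and gluconeogenesis was at -0.62 (DLD1 -1.35 ± 0.45, YAT1 -2.00 ± 0.74), the respiratory chain and ATP synthase at -0.44 (COX8 -1.48 ± 0.39, ATP17 -1.16 ± 0.38) and the tricarboxylic acid cycle at 0.23 (CIT1 1.25 ± 0.43, SDH2 1.09 ± 0.33). Reserve carbohydrates were at -0.38 (TSL1 -1.41 ± 0.40, GSY2 -1.46 ± 0.47), fermentation at -0.29 (ALD5 -1.23 ± 0.35, ALD6 -1.43 ± 0.48), fatty acid oxidation at -0.07 (FAA2 -1.18 ± 0.31, POT1 -1.23 ± 0.45), the proteasome at 0.18 (PRE6 -1.11 ± 0.37, PUP1 -1.09 ± 0.41) and histones at 0.08 (HTZ1 1.32 ± 0.65, HTB1 -0.78 ± 0.50). Strand exchange is given above. For the genes named here the adjusted p lay above 0.05, which does not show that their levels were equal in both windows.

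How far single samples carry the calls was read by leaving each out. Limma called 185 genes with the 5.0 h sample out, 141 with 5.5 h out and 470 with 6.0 h out, and 214, 108, 142 and 156 when 0.5, 1.0, 1.5 or 2.0 h was dropped. At 5.5 h, the time at which both arrays correlated, 168 of the 224 rises had their highest late value. The 5.0 h and 6.0 h values each average a high array and a flat one, which favours 5.5 h, so the count shows no peak. By array, the median of the rises was 4.12 on 5.0 h B and 3.62 on 6.0 h A, against 2.30 and 3.61 on 5.5 h A and B. From the A arrays alone and from the B arrays alone limma called 0 genes, with 1092 and 1111 at an unadjusted p under 0.05.

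**Figure D5:**
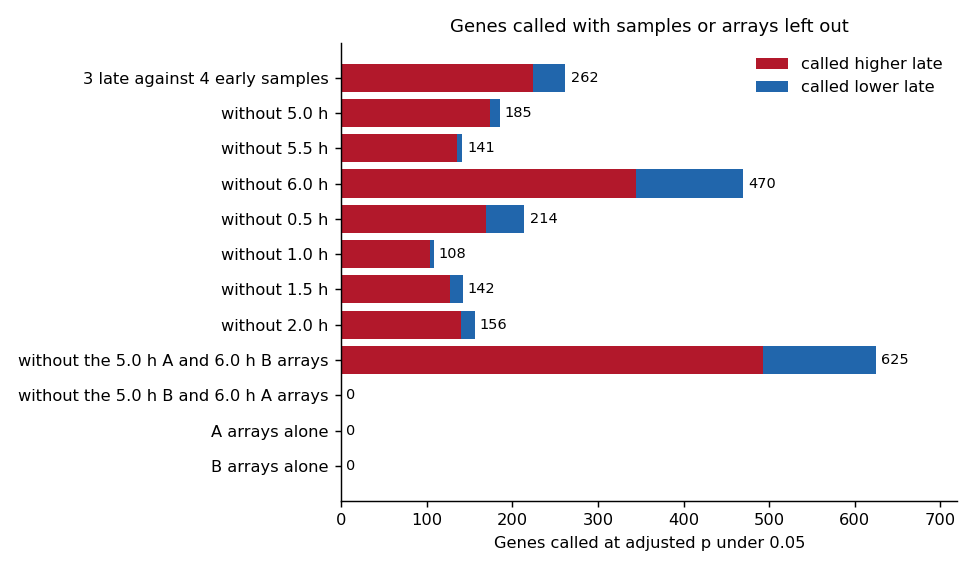
Number of genes called by limma at an adjusted p under 0.05, higher late (red) and lower late (blue), with all samples and with single samples, array pairs or 1 dye orientation left out; the total stands beside each bar. Counts run from 108 to 470 with 1 sample out, and reach 625 and 0 with either pair of 5.0 and 6.0 h arrays out.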

How the data were processed

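RNA of SK1 sporulation was measured on spotted 2-colour arrays, 2 per sample. The deposited array files hold, per the file headers, an intensity for each channel and spot, with quality letters that the sources used here do not explain; negative values occur, and the intensity was taken as background-subtracted. The headers list the time-zero image first on all arrays, while the values of A and B arrays oppose each other as the labels' dye exchange states; ratios were turned by the labels. The authors' series table holds deposited log2 ratios (normalisation not given in the sources used here), used as an alternative; its columns correlated with the arrays at 0.877 to 0.963, except the 0.5 h column (0.157).

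Each array has 13056 spots. The 250 blank and 192 Arabidopsis spots, spots marked U or Z and spots at or below 0 were left out. Ratios were corrected by loess (span 0.3, 4 iterations), spots of a gene averaged, and A and B arrays averaged. Where 1 array lacked a value, the remaining one was used. This holds for 12 called rises in the late window and for 1 called fall in either window. Rises that lacked a value in the early window were not counted, and CDC5 and SSA3 are such genes. Of 6293 genes, 6285 had values in all 7 samples. Symbols came from the RefSeq R64 table for 5716 genes by locus tag and 18 by older name; 559 kept the array's identifier. The test was limma 3.58.1 in R 4.3.3 (lmFit, eBayes, contrast late minus early, Benjamini-Hochberg at 5%), checked on simulated data. The number of arrays limits the precision.

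The windows, the 33 lists and the tests were chosen with earlier results of these data known, and lists are described by counts and medians. Named were the 15 largest called rises and falls with both dye orientations agreed, the 4 called members per list with the smallest adjusted p (or 2 members with the smallest p where none was called), NDT80, IME1, IME2 and 7 markers of sporulating cells; the other called members of the anaphase, spindle pole, membrane and wall lists, their uncalled members and the neighbouring genes named were added after their values were seen. Alternatives changed the normalisation, background, spot and gene filters, samples and arrays. A planned search for promoter motifs was not run here, and no sequences or coordinates are given.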

Additional observations from a re-analysis of the deposited data

Results flagged for a closer look

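Among the 100 genes named and the 33 list medians, 133 sets of 4 early samples were checked for a single sample far from the other 3, and 8 were marked, where chance alone marks about 1 in 20. YAT1, of carnitine-dependent acetyl transport, was at 2.81 at 2.0 h, with the other early samples from 0.06 to 0.53. CDC5 was at -0.95 at 2.0 h, with the others from 0.39 to 0.59. SER33 was at 1.56 at 0.5 h, with the others from -0.13 to -0.01. At 0.5 h, GMC2 was at -0.46 (others 0.29 to 0.35), AHP1 at -0.13 (others 1.80 to 2.02) and CNM67 at 0.43 (others 0.04 to 0.09). At 1.5 h, SPO11 was at 1.00 (others 0.31 to 0.34) and SPR3 at 0.52 (others -0.15 to -0.07). Late samples were not checked, since a set of 3 is too small.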

How the results depend on the processing

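The 262 calls were made over samples that each average 2 arrays, so that the disagreement of A and B arrays at 5.0 and 6.0 h does not enter the standard error. Where a count or sign moved, the cause was not tested, apart from settings that test fewer samples, arrays or spots. Counts that moved by over 1.5 times are given as called genes and, after them, called genes with 1 sign from both dye orientations (262 and 259 as reported). All 12 samples in the fit gave 415 and 407; normexp with offset 50 gave 170 and 167; scaling between arrays gave 111 and 109; keeping only spots marked C gave 7 and 6 of 3543 genes; leaving out the dimmest 25% of genes gave 150 and 149; windows of 5.5 to 6.0 h and 0.5 to 1.5 h gave 126 and 120. Added after seeing the data, leaving out spots marked S gave 112 and 110, and subtracting the blank median gave 161 and 159. A arrays alone and B arrays alone gave 0 each, as did leaving out the 5.0 h B and 6.0 h A arrays, also added later; leaving out the 5.0 h A and 6.0 h B arrays gave 625. With 1 sample left out in turn, called genes ran from 108 (without 1.0 h) to 470 (without 6.0 h), those with both orientations in 1 direction from 106 to 436, and genes whose windows did not overlap from 1291 to 2215 (1120 as reported). Genes without overlap were 457 with spots marked C only, 2070 with the shorter windows and 626 without the 5.0 h B and 6.0 h A arrays. The authors' series table gave 204 calls, 162 of them among the 262. Over the named genes, 1731 of 2271 recomputed differences kept their side of the threshold, 506 lost the call and 33 gained it. Another 1 turned sign in a gene called here: ZIP2 was at -0.52 from the A arrays. Sign changes of genes called in neither setting were not counted as turned. DMC1, for example, moved from -0.26 to 1.19 without the 5.0 h A and 6.0 h B arrays.

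List medians turned sign in 26 of 792 recomputations, counted only where the reported median exceeded its spread within the windows. Sign changes of smaller medians were not counted. Strand exchange, for example, moved from -0.06 to 0.52 without the 5.0 h A and 6.0 h B arrays. Ribosome assembly was at 0.081 with normexp, 0.032 with scaling, 0.062 from the A arrays, 0.19 with spots marked C only, 0.15 above blanks and without dim genes and 0.14 without the 5.0 h B and 6.0 h A arrays. Without those 2 arrays, break formation was at -0.076, axis and synapsis at -0.011, cohesion and segregation at -0.16 and cytosolic ribosomal proteins at 0.13. From the A arrays, DNA replication was at 0.0026, cytosolic ribosomal proteins at 0.21, nitrogen catabolite repression at 0.037 and amino acid synthesis at 0.17. With spots marked C only, axis and synapsis was at -0.069, RNA polymerase I and III subunits at 0.025 and amino acid synthesis at 0.092. DNA replication was at 0.072 in the authors' table, 0.11 without the 5.0 h A and 6.0 h B arrays and from -0.14 to 0.012 with 1 sample left out. The polymerase subunits were at 0.038 above blanks and from -0.39 to 0.13 with 1 sample left out. Haploid markers were at -0.018 with median centring, -0.028 with blank subtraction and from -0.054 to 0.29 with 1 sample left out. No paired analysis was possible because replicate numbers here name different times. Signal near the blanks limits the size of folds on the early A arrays and on the 5.0 h A and 6.0 h B arrays. In the time-zero channel it does so on the early B arrays.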

Other observations

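The 2.5 to 4.5 h samples had no part in the test. At 3.5 h, 41 of the 224 rises lay beyond the early mean by over 50% of their change, compared with 28, 22 and 24 at 2.5, 4.0 and 4.5 h. The 0.0 h sample, itself of time zero, had 28 such rises, so the counts at 2.5, 4.0 and 4.5 h show no early onset. The 3.5 h B array correlated across genes at 0.484 to 0.653 with the 5.0 h B, 5.5 h A, 5.5 h B and 6.0 h A arrays, whereas the 3.5 h A array correlated with them at 0.171 to 0.220. Of the 38 falls, 22 were beyond 50% of their change at 4.0 h, compared with 17 at 0.0 h. The Arabidopsis spots stayed out of every comparison.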
